A study of Mus musculus with 1 sample.

Results

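The genes described here make leukotrienes and prostanoids, the lipid mediators that macrophages derive from arachidonic acid. They were chosen by name as 10 rows of the 11918 genes listed in the expression table: the leukotriene genes Alox5, Alox5ap, Ltc4s and Lta4h, the prostanoid genes Ptgs1, Ptgs2, Ptges and Tbxas1, and the phospholipase family genes Pla2g15 and Pla2g7. All 10 were listed, and each had at least 8 UMIs (unique molecular identifiers, the tags that mark single captured mRNA molecules). Of the 10 genes, 6 were detected in at least 10% of cells and 4 were detected in fewer than 2% of cells. Over all 11918 listed genes, 4023 were detected in at least 10% of cells, and the median gene was detected in 4.96% of cells.

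The cells were alveolar macrophages (AMs), the resident macrophages of the airspaces, sorted as CD45+CD11c+SiglecF+ cells from the lung of a single adult mouse. The mouse was labelled wild-type, was 8 to 12 weeks old, was of FVB/NJ stock backcrossed to C57BL/6, and carried the floxed alleles of Hdac3 (Hdac3fl/fl) without Cre. The study made this 10x Genomics 3' single-cell library to ask whether AMs are a mixed population, and the matching library with deletion of Hdac3 was not analysed here. With 1 library of 1 mouse there was no replicate and no test between animals, so every interval below is a 95% interval for counting error only, and cells were not treated as replicates.

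The table held 2055 cells, with 1143 to 8603 UMIs per cell and a median of 3278, for 5000 cells loaded. All 13 AM markers fixed for the check, among them Chil3, Mrc1 and Siglecf, were listed, and each cell held at least 2 of them. Since Chil3 had a UMI in 100% of cells and Ear2 in 98.8%, this rule is easily met and does not settle the identity of a cell. Markers of other cells that make these mediators were also counted. Of 6 mast cell markers only Hdc was listed (9 UMIs), none of the basophil, eosinophil or T and NK cell markers was listed, and the platelet marker Pf4 had 62 UMIs in 54 cells. Of 6 neutrophil markers, S100a8 (207 cells), Mmp8 (165 cells) and Csf3r (65 cells) were listed, with 527 UMIs in 403 cells in all (19.6%), at most 23 UMIs in a cell and 33 cells with more than 1 of them. That is more cells than had Tbxas1 or Lta4h, and the part of these markers in the results was not tested. Of the 2055 cells, 384 had more than 5% mitochondrial UMIs, although the study states a limit of 5%.

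Leukotriene synthesis begins when 5-lipoxygenase (Alox5), helped by its membrane partner FLAP (Alox5ap), turns arachidonic acid into leukotriene A4. Leukotriene C4 synthase (Ltc4s) joins that intermediate to glutathione to give the cysteinyl leukotriene C4, whereas leukotriene A4 hydrolase (Lta4h) turns it into leukotriene B4, an attractant of neutrophils. The cyclooxygenases (Ptgs1 and Ptgs2) instead make prostaglandin H2, from which microsomal prostaglandin E synthase (Ptges) makes prostaglandin E2 and thromboxane A synthase (Tbxas1) makes thromboxane A2, and AMs are known as a source of both leukotrienes and thromboxane.

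The sequences upstream of 3 of the genes are shown because these genes stood far apart in level: Ltc4s near the top, Alox5 in the middle and Ptgs2 near the bottom. They are RefSeq promoter sequences of GRCm38.p6, each read 5′ to 3′ on the strand of the gene and ending at the annotated start, and for Ltc4s cut where the GENCODE gene begins. A promoter entry was found for 9 of the 10 genes, and none was matched for Alox5ap. Capitals mark the letters of any of 6 motifs searched on both strands.
Ltc4s, chr11:50238617-50238782, minus strand: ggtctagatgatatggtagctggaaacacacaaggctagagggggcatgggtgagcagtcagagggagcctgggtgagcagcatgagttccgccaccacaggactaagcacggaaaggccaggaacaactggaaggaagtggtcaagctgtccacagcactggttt
Alox5, chr6:116461179-116461428, minus strand: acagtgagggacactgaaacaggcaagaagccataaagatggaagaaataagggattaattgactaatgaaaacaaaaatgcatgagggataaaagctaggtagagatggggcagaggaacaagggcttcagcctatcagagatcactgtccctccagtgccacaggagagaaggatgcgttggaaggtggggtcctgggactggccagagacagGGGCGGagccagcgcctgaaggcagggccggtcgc
Ptgs2, chr1:150099781-150100030, plus strand: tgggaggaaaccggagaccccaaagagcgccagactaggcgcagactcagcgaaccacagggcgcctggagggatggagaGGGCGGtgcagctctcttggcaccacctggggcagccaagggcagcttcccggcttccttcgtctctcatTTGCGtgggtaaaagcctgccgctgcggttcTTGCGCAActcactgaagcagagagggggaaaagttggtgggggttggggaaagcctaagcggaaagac

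The motifs were the TATA box (TATAAA), the Sp1 site (GGGCGG), the CRE core (TGACG), the AP-1 site (TGANTCA), the PU.1 site (GAGGAAGT) and the C/EBP core (TTGCG). They were searched in the whole window of 300 bases, which runs from 250 bases before to 50 bases after each start. Over the 32851 promoter windows of the same length, the TATA box was present in 13.6%, the Sp1 site in 35.7%, the CRE core in 20.8%, the AP-1 site in 7.81%, the PU.1 site in 3.20% and the C/EBP core in 17.4%. The Ptgs2 window held an Sp1 site 170 to 165 bases before the start and the C/EBP core 3 times, at 100 to 96, 69 to 65 and 66 to 62 bases before it, the last pair overlapping as opposite strands of TTGCGCAA. It also held a CRE core 14 to 18 bases after the start, which is not shown. The Alox5 window held an Sp1 site 35 to 30 bases before the start and a C/EBP core 21 to 25 bases after it. No motif matched in the Ltc4s window, which says only that these letters are not there. Among the other genes, the Ptgs1 window held the PU.1 site 24 to 17 bases before the start, and the Tbxas1 window held an AP-1 site 61 to 55 bases before the start and overlapping TATA boxes 13 to 6 bases before it. The Ptges window held the Sp1 site at 53 to 48 and 42 to 37 bases before the start, the Pla2g15 window held it at 62 to 57 bases, and the Pla2g7 window held it at 13 to 8 bases with a C/EBP core at 134 to 130 bases. The Lta4h window held a C/EBP core 230 to 226 bases before the start. A match is a description of the letters and not a site of binding.

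In GENCODE M21 (GRCm38) all 10 genes are protein-coding. Ltc4s is a compact gene of chromosome 11 (50236461 to 50238616, minus strand), Alox5 lies on chromosome 6 (116410077 to 116461178, minus strand) and Alox5ap on chromosome 5 (149264767 to 149288153, plus strand). Lta4h lies on chromosome 10 (93453411 to 93484875, plus strand), Tbxas1 on chromosome 6 (38875404 to 39084585, plus strand) and Pla2g15 on chromosome 8 (106150399 to 106164715, plus strand). No 98-base sequence from the last 300 bases of a protein-coding transcript of any of the 10 genes occurred in a transcript of another gene (0%).

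The 10 genes fell into high, middle and low levels. In this assay each captured mRNA gives 1 UMI whatever its length. The share of mRNA captured may differ between genes and was not measured, so ratios between genes are ratios of UMIs. Levels are given as UMIs of the gene per 10000 UMIs of the library. The median over all listed genes was 0.148 UMIs per 10000, and the 2 highest of the 10 genes ranked 209 and 217 of the 11918.

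Alox5ap, which encodes FLAP, was the highest of the 10. It had 5430 UMIs in 1754 of 2055 cells, which is 85.4% of cells (83.7 to 86.9) and a level of 7.52 UMIs per 10000 (7.32 to 7.72). Per cell its level ran from 0 to 29.0 UMIs per 10000 with a median of 6.77, and 64.6% of cells held 2 or more UMIs, up to 13 in a cell. Ltc4s, the leukotriene C4 synthase gene, was just below. It had 5192 UMIs in 1729 cells, which is 84.1% of cells (82.5 to 85.7) and a level of 7.19 UMIs per 10000 (6.99 to 7.39). Per cell its level ran from 0 to 33.0 UMIs per 10000 with a median of 6.34, and 62.9% of cells held 2 or more UMIs, up to 12. The ratio of the Alox5ap level to the Ltc4s level was 1.05 (1.01 to 1.09), so these genes stood close together near the top of the library.

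Alox5, the lipoxygenase that FLAP serves, was much lower than its partner. It had 554 UMIs in 477 cells, which is 23.2% of cells (21.4 to 25.1) and a level of 0.767 UMIs per 10000 (0.704 to 0.834). Of the 477 cells, 411 held a single UMI and the highest held 3. The level of Alox5ap was 9.80 times that of Alox5 (8.98 to 10.7), and the level of Ltc4s was 9.37 times that of Alox5 (8.58 to 10.2).

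Lta4h, which leads to leukotriene B4, had 399 UMIs in 345 cells, which is 16.8% of cells (15.2 to 18.5) and a level of 0.552 UMIs per 10000 (0.4995 to 0.609). The enzymes that compete for leukotriene A4 therefore stood far apart in UMI level, with Ltc4s at 13.0 times Lta4h (11.8 to 14.4). Alox5 stood above Lta4h by a ratio of 1.39 (1.22 to 1.58).

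Among the prostanoid genes, Tbxas1 was the one well above the lowest genes. It had 456 UMIs in 397 cells, which is 19.3% of cells (17.6 to 21.1) and a level of 0.631 UMIs per 10000 (0.575 to 0.692), with up to 5 UMIs in a cell. It lay between Alox5 and Lta4h. Alox5 exceeded it by a ratio of 1.21 (1.07 to 1.38), whereas its ratio to Lta4h was 1.14 (0.997 to 1.31), which counting error does not separate from equal levels.

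The other prostanoid genes, which are the cyclooxygenases upstream of Tbxas1 and the parallel synthase Ptges, were detected in very few cells. Ptgs2, the inducible cyclooxygenase, had 31 UMIs in 24 cells, which is 1.17% of cells (0.750 to 1.73) and a level of 0.0429 UMIs per 10000 (0.0292 to 0.0609). Ptgs1, the constitutive cyclooxygenase, had 15 UMIs in 15 cells, which is 0.730% of cells (0.409 to 1.20) and a level of 0.0208 UMIs per 10000 (0.0116 to 0.0343). Ptges had 20 UMIs in 20 cells, which is 0.973% of cells (0.595 to 1.499) and a level of 0.0277 UMIs per 10000 (0.0169 to 0.0428). The level of Tbxas1 was 14.7 times that of Ptgs2 (10.2 to 21.9) and 30.4 times that of Ptgs1 (18.2 to 54.8).

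Free RNA in droplets can give UMIs in cells that do not make a gene. Genes of lung epithelium, which AMs should lack, were used as a rough guide to its extent. Whether the UMIs of these epithelial genes were free RNA was itself not tested. In the same 2055 cells the surfactant gene Sftpc had a UMI in 6.86% of cells, the club cell gene Scgb1a1 in 5.50%, Sftpa1 in 1.41% and Sftpb in 0.389%. The fifth epithelial marker on the list, Epcam, had a UMI in 58.1% of cells and was left out of this range after its values were seen, since AMs are known to express it. The shares of Ptgs2, Ptges, Ptgs1 and Pla2g7 lay within or at the edge of this range, and whether their UMIs were free RNA was not tested. The shares of the other 6 genes lay above those of the 4 genes used, and only those of Alox5ap and Ltc4s lay above that of Epcam. Among the neutrophil markers, S100a8 (10.1% of cells) and Mmp8 (8.03%) lay above the range of the 4 genes and Csf3r (3.16%) within it, so the range is no upper limit of free RNA. Only Ptgs2 among the lowest genes had more than 1 UMI in any cell, with 19 cells of 1 UMI, 3 cells of 2 UMIs and 2 cells of 3 UMIs.

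Of the phospholipase family genes, Pla2g15, the lysosomal phospholipase A2 known for degrading surfactant phospholipid in AMs, was the third highest of the 10. It had 1016 UMIs in 759 cells, which is 36.9% of cells (34.8 to 39.1) and a level of 1.41 UMIs per 10000 (1.32 to 1.496), with up to 5 UMIs in a cell. Its level was 1.83 times that of Alox5 (1.65 to 2.04). Pla2g7, the secreted hydrolase of platelet-activating factor, was the lowest, with 8 UMIs in 8 cells, which is 0.389% of cells (0.168 to 0.766) and a level of 0.0111 UMIs per 10000 (0.00478 to 0.0218). In the order of levels the neighbours Ptgs2 and Ptges (ratio 1.55, 0.856 to 2.87), Ptges and Ptgs1 (1.33, 0.649 to 2.80) and Ptgs1 and Pla2g7 (1.88, 0.746 to 5.11) did not differ beyond counting error.

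**Figure D1:**
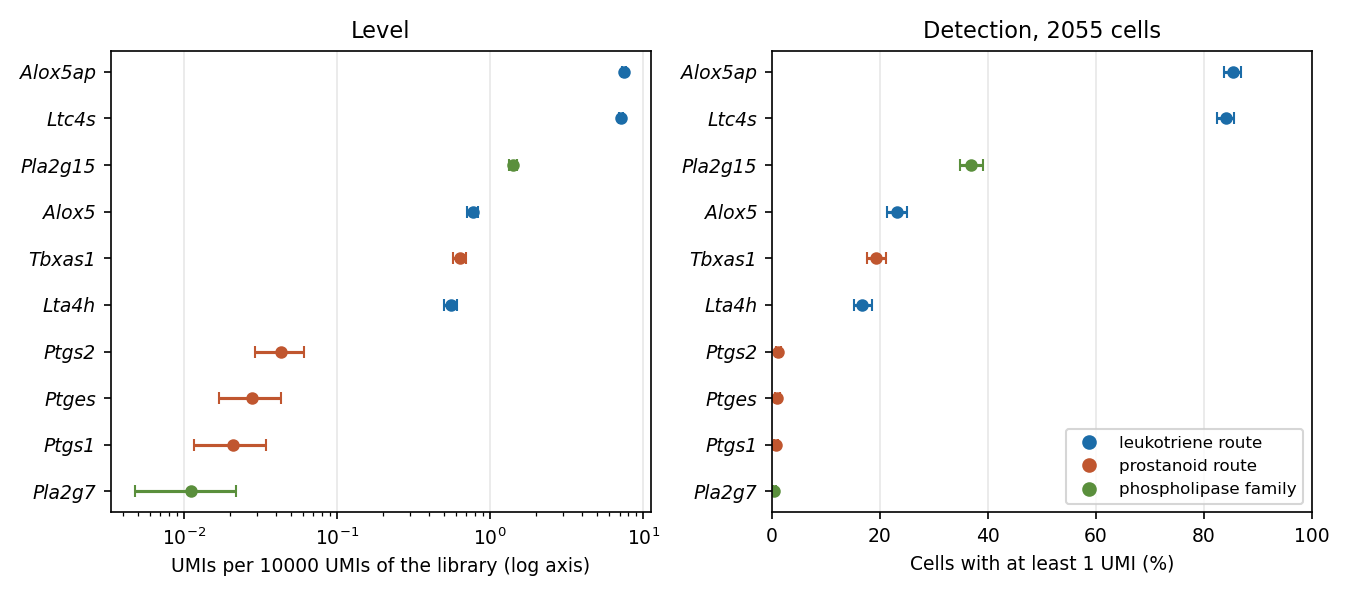
Level of each gene in UMIs per 10000 UMIs of the library (left, log axis) and percent of the 2055 cells with at least 1 UMI (right, linear axis), with points coloured by pathway and bars for exact 95% intervals of counting error. Alox5ap and Ltc4s stood at 7.52 and 7.19, Pla2g15, Alox5, Tbxas1 and Lta4h between 0.552 and 1.41, and the other 4 genes at or below 0.0429.

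Detection followed depth, so a cell without a UMI of these genes was not shown to lack the mRNA. When cells were split into 3 groups by total UMIs (medians of 2092, 3276 and 5024 UMIs), Ltc4s was detected in 70.4%, 86.9% and 95.1% of cells, and Alox5ap in 70.7%, 89.1% and 96.2%. The Ltc4s level moved little over the same groups, from 7.01 (6.58 to 7.47) through 7.21 to 7.24 UMIs per 10000 (6.97 to 7.53). The Alox5ap level was 6.66 UMIs per 10000 (6.24 to 7.10) in the shallowest cells, 7.42 in the middle and 7.91 (7.62 to 8.21) in the deepest.

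Alox5 was detected in 17.8%, 22.1% and 29.7% of cells from the shallowest to the deepest group, whereas its level went the other way, from 0.949 (0.794 to 1.13) through 0.785 to 0.686 UMIs per 10000 (0.603 to 0.777). Pla2g15 showed the same opposition, with detection of 28.9%, 34.6% and 47.2% and levels of 1.76 (1.55 to 2.00), 1.35 and 1.30 (1.19 to 1.43). Tbxas1 rose in detection from 12.0% through 19.1% to 26.8%, with overlapping levels of 0.618, 0.655 and 0.622. Lta4h was detected in 11.4%, 12.1% and 26.8% of cells, and its level was lower in the middle group (0.417, 0.337 to 0.511) than in the shallowest (0.604, 0.482 to 0.748) or the deepest (0.616, 0.538 to 0.703). The shares of cells thus ordered by depth for the 6 genes, and the levels did not follow a shared order.

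With every cell thinned to 2000 UMIs, which left out 299 cells with fewer, 75.1% of the other 1756 cells had a UMI of Alox5ap (73.0 to 77.1) and 73.8% a UMI of Ltc4s (71.7 to 75.8). The shares were 24.1% for Pla2g15, 14.7% for Alox5, 11.0% for Tbxas1 and 9.79% for Lta4h, and the order of the 6 genes was the one without thinning. If each gene had the same level in every cell, the depths alone would give a UMI in 88.6% of cells for Alox5ap, 87.6% for Ltc4s, 37.7% for Pla2g15, 23.2% for Alox5, 19.6% for Tbxas1 and 17.4% for Lta4h. The observed shares of Alox5ap and Ltc4s, 85.4% and 84.1%, lay below these values, and for the other 4 genes these values lay within the intervals of the observed shares. The variance of the UMIs over cells, divided by the variance that depth and Poisson counting give, was 1.29 for Ltc4s and 1.22 for Alox5ap. Both exceeded the upper quartile of 1.10 over the 4023 genes detected in at least 10% of cells (median 1.05). Pla2g15 (1.10), Lta4h (1.07), Tbxas1 (1.05) and Alox5 (1.02) lay near or below that quartile. The median level of the 4023 genes, in the units used above, was 0.716, against 7.19 for Ltc4s and 7.52 for Alox5ap. The genes were not matched for level, and the part of level in these ratios was not tested.

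**Figure D2:**
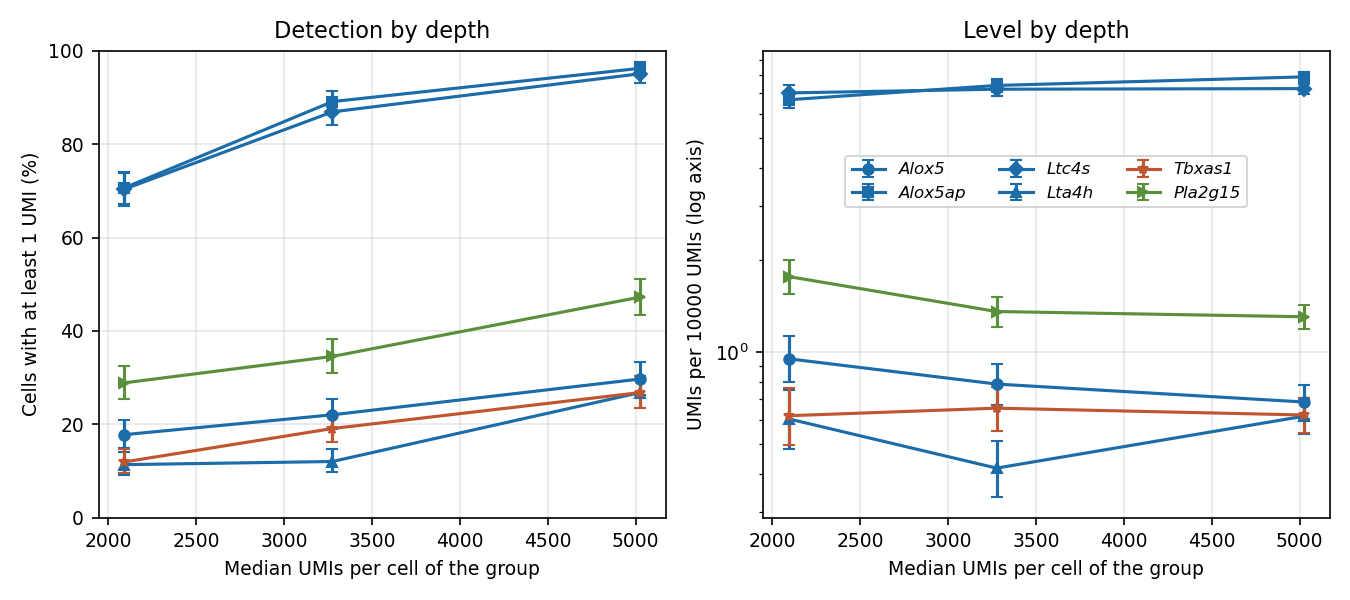
Percent of cells with at least 1 UMI (left) and level in UMIs per 10000 UMIs (right, log axis) for the 6 genes detected in at least 10% of cells, in 3 depth groups of cells placed at their median UMIs per cell, with exact 95% intervals of counting error. Detection of each gene is highest in the deepest cells, as for Ltc4s from 70.4% to 95.1%, whereas from the shallowest to the deepest cells the level goes from 6.66 to 7.91 for Alox5ap and from 0.949 to 0.686 for Alox5, and that of Lta4h is lowest in the middle (0.417).

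Consecutive enzymes of the leukotriene route were detected together about as often as their separate shares give at the depth of each cell. The observed number of cells with both genes was set beside the product of the separate shares, taken within 10 bins of total UMIs and summed. Alox5 and Alox5ap, which act in the same step, were found together in 424 cells against 422 from the product, a ratio of 1.01 (0.921 to 1.09). Of the 477 cells with Alox5, 88.9% held Alox5ap, and of the 1754 cells with Alox5ap, 24.2% held Alox5. Alox5ap and Ltc4s were found together in 1520 cells, or 74.0% of cells (72.0 to 75.9), against 1503 from the product, a ratio of 1.01 (0.985 to 1.04). A joint count cannot exceed the cells of the rarer gene, here 477 for Alox5 and 1729 for Ltc4s. The ratio of any pair with Alox5ap or Ltc4s therefore could not rise far above 1, and values near 1 say little about whether the genes go together.

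Alox5 and Ltc4s met in 418 cells against 416 from the product (ratio 1.00, 0.919 to 1.09). On the leukotriene B4 branch, Alox5 and Lta4h met in 91 cells against 90.5 (1.00, 0.812 to 1.23), and Alox5ap and Lta4h in 316 against 309 (1.02, 0.920 to 1.13). Ltc4s and Lta4h, which compete for the same substrate, met in 300 cells against 304 (0.986, 0.884 to 1.09). The interval of the ratio included 1 for each of these 6 pairs. It holds the counting error of the joint count and takes the product as fixed, so it cannot decide whether small departures are present.

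The 3 genes needed for leukotriene C4 (Alox5, Alox5ap and Ltc4s) were all detected in 379 cells, 18.4% of cells (16.8 to 20.2), against 373 from the product. The 3 genes needed for leukotriene B4 (Alox5, Alox5ap and Lta4h) were all detected in 88 cells, 4.28% of cells (3.45 to 5.25), against 83.1. All 4 genes were found in 79 cells (3.84%), against 75.9. By the number of these 4 genes detected, 69 cells had none, 338 had 1, 1056 had 2, 513 had 3 and 79 had 4, and the median total of these cells was 1840, 2400, 3329, 3933 and 4582 UMIs in turn. The number of route genes seen in a cell thus went with its depth.

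A cell with neither Ltc4s nor Alox5ap was uncommon. There were 92 such cells, 4.48% of cells (3.62 to 5.46), against 74.5 from the product of the separate shares of cells without each gene, a ratio of 1.23 (1.00 to 1.51). Their median total was 1986 UMIs, compared with 3355 in the other 1963 cells, and their median mitochondrial share was 3.38% compared with 3.20%.

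On the prostanoid side few cells joined consecutive enzymes. Ptgs1 and Tbxas1 met in 2 cells against 3.62 from the product, and Ptgs2 and Tbxas1 in 5 cells against 4.82. Ptgs1 and Ptges met in 1 cell, and Ptgs2 met neither Ptges nor Ptgs1 in any of the 2055 cells, which allows a share of up to 0.146% at 3 cells. These numbers are too few to say how often the pairs are made by the same cell. Across the branches, Alox5 and Tbxas1 met in 113 cells against 102 (1.11, 0.919 to 1.33), and Pla2g15 and Alox5 in 203 cells against 191 (1.06, 0.929 to 1.21).

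**Figure D3:**
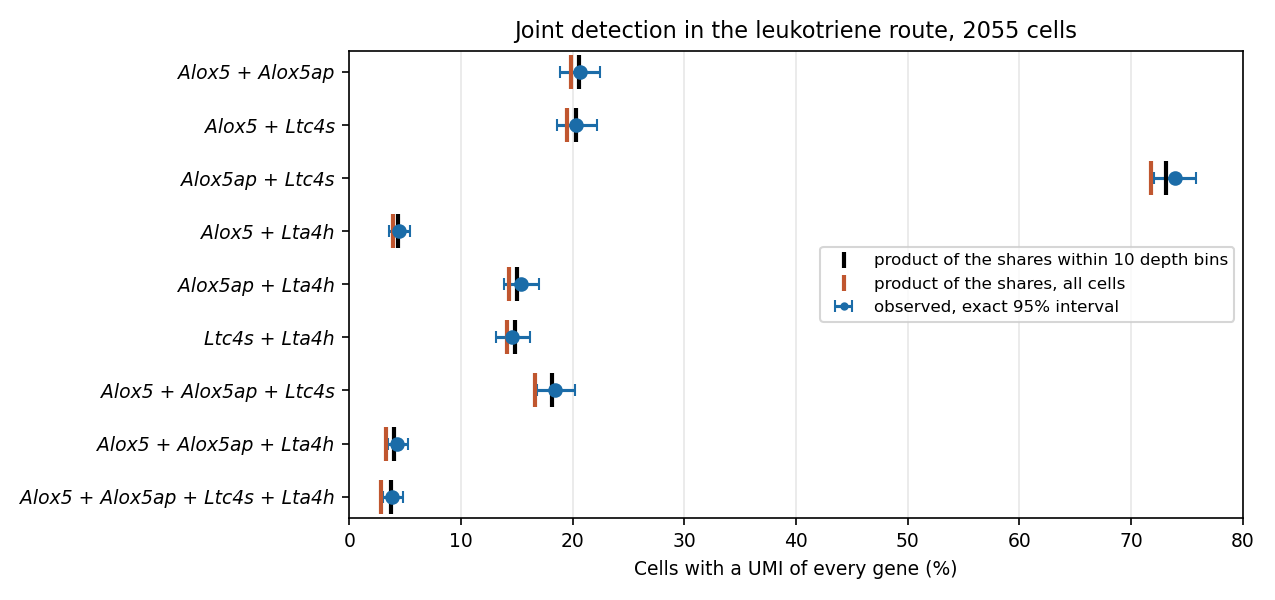
Percent of the 2055 cells with a UMI of every gene of a set (points, exact 95% intervals of counting error), beside the product of the separate shares taken within 10 depth bins (black) or over all cells (orange). Each point lies close to the product within depth bins, as for Alox5ap with Ltc4s at 1520 cells against 1503.

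Correlations across cells were weak between these genes. Pearson's r of the log values, after regression on the log of the total UMIs, ranged from -0.02 to 0.09 over the 15 pairs of the 6 genes detected in at least 10% of cells (2055 cells of 1 library, so that all points share the library). Alox5ap and Ltc4s, both detected in most cells, had the highest value (r = 0.0943), which stood at percentile 99.7 of the values of Alox5ap with the 4022 other genes detected in at least 10% of cells. It was followed by Alox5 and Tbxas1 (r = 0.0589). Alox5 had r = 0.0212 with its partner Alox5ap. In the sparse counts of the other 4 genes, weak values of r are no finding.

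By the same measure the genes most like Ltc4s, among the 4022 other genes detected in at least 10% of cells, were Cd9 (r = 0.240), which encodes a tetraspanin of the cell surface, Lyz2 (0.193), which encodes a lysozyme, and Chil3 (0.179), a chitinase-like gene abundant in AMs. The genes most like Alox5ap were Cd9 (r = 0.160), the Fc receptor gamma chain gene Fcer1g (0.152) and the eosinophil-associated ribonuclease gene Ear2 (0.130). The 99th percentile of r over all those genes was 0.0806 for Ltc4s and 0.0706 for Alox5ap. These partners were among the abundant genes, with levels from 33.2 UMIs per 10000 for Ear2 to 165 for Lyz2 and detection in at least 98.8% of cells.

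For the sparser genes the highest values were lower. They were Pltp (r = 0.0919), Rbck1 (0.0768) and Zhx1 (0.0766) for Alox5, and Vasp (0.0812), Ppp2r5c (0.0760) and Uchl3 (0.0752) for Lta4h. For Tbxas1 they were Bcl7b (0.0775), Bccip (0.0772) and Hspa4 (0.0719), and for Pla2g15 they were Itch (0.0832), Tgfbr2 (0.0816) and Malat1 (0.0805). The lowest r over the same 4022 genes was -0.0785 for Alox5, -0.0674 for Lta4h, -0.0954 for Tbxas1 and -0.0915 for Pla2g15. For Tbxas1 and Pla2g15 the lowest value was thus larger in size than the highest. The partners named for these 4 genes are extremes of 4022 values in sparse counts and are no finding. No gene was among the 3 nearest of more than 1 of the 6 genes except Cd9.

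Because Cd9 headed the lists of both Ltc4s and Alox5ap, the levels of the 6 genes were laid out in 4 equal groups of cells ordered by the Cd9 log value, as a description without a test. Cd9 was picked from 4022 genes for its r with Ltc4s and Alox5ap, so the order of these genes over the groups restates that choice and is not a separate result. The Ltc4s level was 5.41 UMIs per 10000 in the group with the lowest Cd9, then 6.68, 7.57 and 8.65. The Alox5ap level was 6.12, 6.86, 8.08 and 8.63 UMIs per 10000 in the same groups.

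The choice of Cd9 did not use the other genes. The fold between the highest and the lowest group was 0.812 (0.635 to 1.04) for Alox5, 0.994 (0.757 to 1.31) for Tbxas1, 1.30 (0.971 to 1.75) for Lta4h and 0.830 (0.690 to 1.00) for Pla2g15. Depth moved with these groups, from a median total of 2640 UMIs in the lowest to 3715 in the highest, and its part in these values was not tested.

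**Figure D4:**
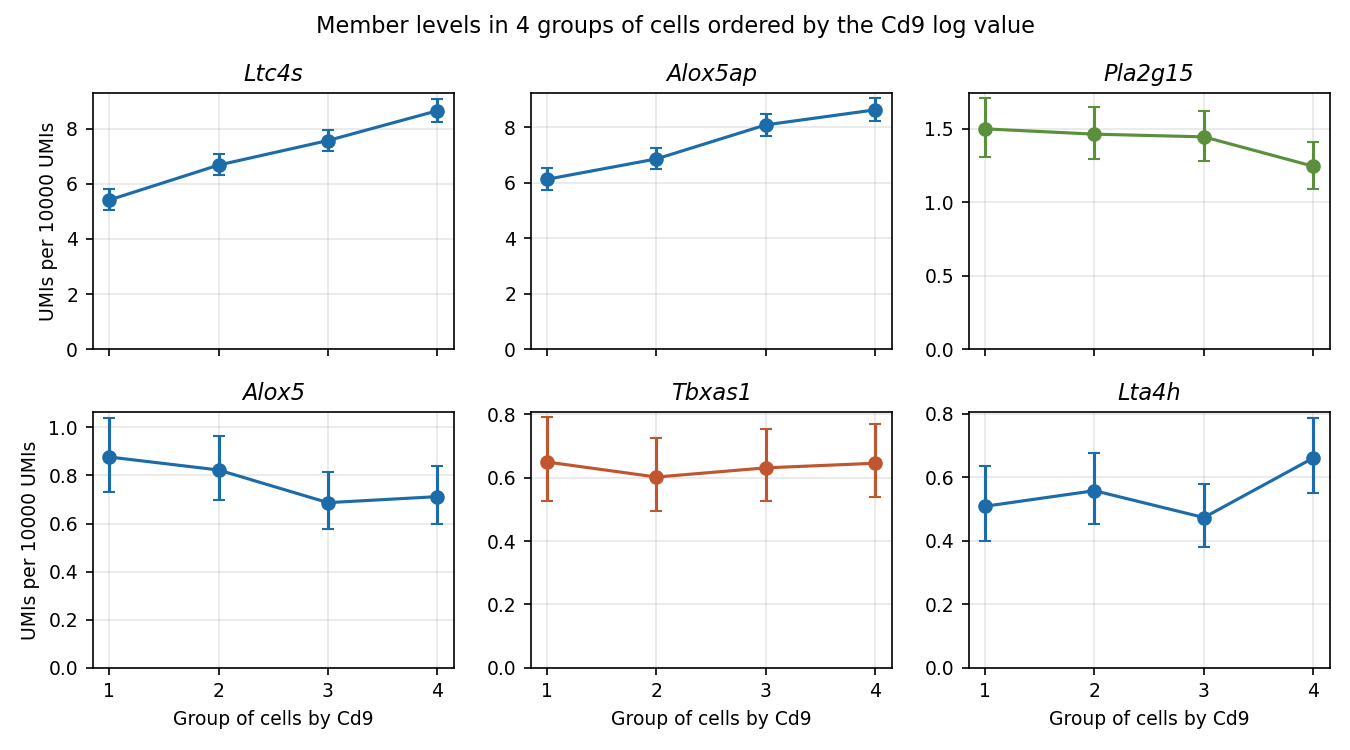
Level of 6 genes in UMIs per 10000 UMIs (linear axes from 0) in 4 groups of 513 or 514 cells ordered by the Cd9 log value, with exact 95% intervals of counting error. Ltc4s goes from 5.41 to 8.65 and Alox5ap from 6.12 to 8.63, which the choice of Cd9 fixed, and the folds of the other 4 genes from the lowest to the highest group lie between 0.812 and 1.30.

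The genes were then compared between kinds of AMs marked by genes outside the list. A cell was called dividing with at least 2 of the 6 genes Top2a, Birc5, Rrm2, Mki67, Cdk1 and Ccna2 detected (120 cells), MHC class II with at least 3 of the 4 genes H2-Ab1, H2-Aa, H2-Eb1 and Cd74 (230 cells), and chemokine with at least 3 of the 6 genes Tnf, Il1a, Cxcl1, Cxcl3, Ccl3 and Ccl4 (211 cells). These are ranges of marker detection and not cell types. The classes overlap, with 21 cells both dividing and chemokine, 27 both MHC class II and chemokine, and 15 both dividing and MHC class II. A further 203, 160 and 383 cells fell 1 marker short, and the classes were deeper than the cells outside them (medians of 4503, 3852 and 4410 UMIs against 3229, 3218 and 3166.5), since marker detection needs depth.

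Of the 6 genes detected in at least 5% of cells, 0 were at least 1.5-fold higher and 0 at least 1.5-fold lower in any class. This is a rule of size and not a test, and single genes passed it under other settings. At 2000 UMIs per cell these were Alox5 in dividing cells (0.360), Lta4h in MHC class II cells (1.53) and Tbxas1 in chemokine cells (0.585), and with 1 more marker asked for they were Pla2g15 in MHC class II cells (0.610) and Lta4h in chemokine cells (1.61). Over the 5945 genes detected in at least 5% of cells, 11.1% were that much higher and 8.56% that much lower in dividing cells. In MHC class II cells 1.21% were higher and 3.57% lower, and in chemokine cells 1.93% were higher and 4.68% lower. With 6 genes, shares of this size give 0 or 1 gene, so the count does not set these genes apart. The median fold of the 6 genes was 0.794 in dividing cells, where that of all 5945 genes was 0.997. It was 0.980 in MHC class II cells (all genes 0.973) and 0.919 in chemokine cells (all genes 0.969).

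In dividing cells the leukotriene C4 genes were a little lower. The level of Ltc4s was 5.92 UMIs per 10000 (5.29 to 6.59) in dividing cells and 7.29 (7.09 to 7.50) in the others, a fold of 0.811 (0.723 to 0.907). Alox5ap had a fold of 0.843 (0.756 to 0.939) and Alox5 a fold of 0.684 (0.457 to 0.988). At 2000 UMIs per cell, Alox5 was detected in 4.39% of dividing cells (1.44 to 9.94) and 15.4% of the others (13.7 to 17.2). The folds of Tbxas1 (0.693, 0.444 to 1.04) and Pla2g15 (0.777, 0.591 to 1.00) had intervals that reached 1.

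Lta4h lay on the other side in dividing cells. It was detected in 31.7% of them and in 15.9% of the other cells, but at 2000 UMIs per cell in 12.3% (6.88 to 19.8) and 9.62% (8.24 to 11.2). Its level had a fold of 1.41 (0.996 to 1.94), so that the gap was smaller at equal depth and within counting error.

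In MHC class II cells Ltc4s (fold 0.974, 0.897 to 1.06) and Alox5ap (0.985, 0.909 to 1.07) were near the level of the other cells. Alox5 had a fold of 1.16 (0.908 to 1.47), which was 0.823 when all 4 markers were asked for, and Lta4h had a fold of 1.21 (0.904 to 1.59). Only Pla2g15 had an interval that did not reach 1, with a fold of 0.763 (0.617 to 0.936).

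In chemokine cells Ltc4s had a fold of 0.898 (0.825 to 0.976) and Pla2g15 a fold of 0.820 (0.669 to 0.997). The fold of Alox5ap was 0.974 (0.899 to 1.05) and that of Alox5 was 1.13 (0.880 to 1.43). Lta4h had a fold of 0.929 (0.677 to 1.25). Ptgs2, the cyclooxygenase known to be induced with such cytokines, had 10 UMIs in 6 of the 211 chemokine cells and 21 UMIs in 18 of the 1844 others, a fold of 3.09 (1.30 to 6.85). At 2000 UMIs per cell, its share was 0.976% (0.118 to 3.48) against 0.580% (0.266 to 1.10), and with 1 more marker asked for the fold was 1.59. In dividing cells Ptgs2 had 7 UMIs in 4 cells against 24 UMIs in 20 others (fold 3.48, 1.27 to 8.34). Dividing and chemokine cells overlap in 21 cells, so the Ptgs2 folds may rest in part on the same cells, which was not checked. The intervals of these folds treat UMIs as independent, although UMIs of the same cell are not, and the shares lie in the range of the epithelial genes used above.

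**Figure D5:**
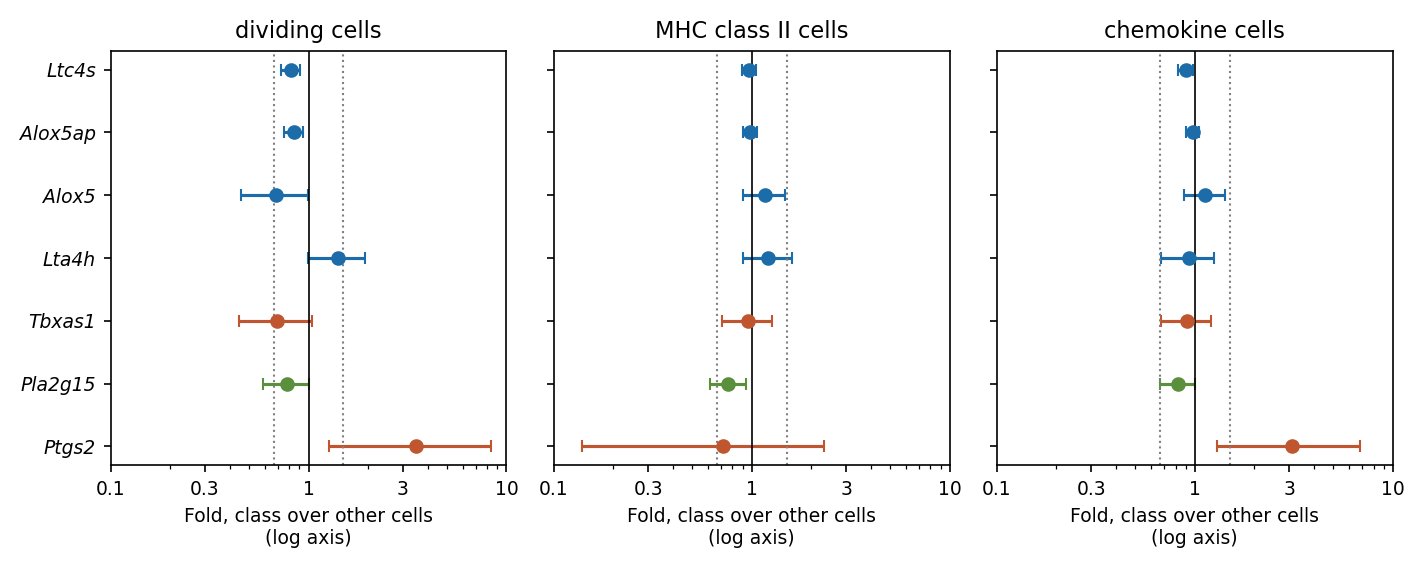
Fold of the level (UMIs per 10000 UMIs) of each gene in dividing, MHC class II and chemokine cells over all cells outside the class (log axes), with exact 95% intervals of counting error; dotted lines mark 1.5-fold in either direction. The 6 genes detected in at least 5% of cells all lie inside the dotted lines, and Ptgs2, with 31 UMIs in all, has the widest intervals.

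The rest of the pathway was read from a list of 82 genes, of which 54 were listed and 23 were detected in at least 10% of cells. Over all genes, 4023 of the 11918 listed were detected in at least 10% of cells. The highest was Mgst1, a microsomal glutathione transferase of the same family as Ltc4s and Alox5ap, at 7.71 UMIs per 10000 (7.50 to 7.91) in 83.1% of cells. Its ratio to Alox5ap was 1.03 (0.987 to 1.06) and its ratio to Ltc4s was 1.07 (1.03 to 1.11), so that these 3 genes stood close in level. They are named here as the highest of their lists, and their likeness does not hold for the family. Mgst3, of the same family, was lower at 2.76 UMIs per 10000 and detected in 51.3% of cells, and Mgst2 was at 0.237 and detected in 7.69%.

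Cotl1, which encodes a protein known to bind 5-lipoxygenase, was second at 4.56 UMIs per 10000 (4.41 to 4.72) in 70.9% of cells. Next came the lysophospholipid hydrolase gene Abhd12 at 2.80, the aldo-keto reductase gene Akr1b3 at 2.58, and Ptges3, which encodes the cytosolic prostaglandin E synthase also known as the cochaperone p23, at 2.43. For Akr1b3, 50% of the 98-base end sequences also occur in pseudogenes, so its level is uncertain. The others among the 10 highest were Fpr2, a receptor for formyl peptides and lipoxin, at 2.04, Pafah1b1 at 1.52, Pparg at 1.17 and Mgll at 0.883.

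Cytosolic phospholipase A2 (Pla2g4a), which releases arachidonic acid from membranes, was detected in 11.3% of cells (9.95 to 12.7) at 0.353 UMIs per 10000, and the level of Pla2g15 was 3.98 times as high (3.47 to 4.59). Pla2g4a and Alox5 met in 63 cells against 60.1 from the product within depth bins. Dpep2, a dipeptidase that trims leukotriene D4, was detected in 22.6% of cells. Of the other 5 lipoxygenases on the list only Aloxe3 was listed, with 9 UMIs.

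Of 17 receptors for lipid mediators 8 were listed. Those for prostaglandin E2 were Ptger4, detected in 14.8% of cells, Ptger2, in 6.62%, and Ptger1, with 3 UMIs. The last 2 lay within or below the range of the epithelial genes used above. The cysteinyl leukotriene receptor gene Cysltr1 was detected in 2.14% of cells (1.56 to 2.86), within the range of those epithelial genes. The leukotriene C4 exporter gene Abcc1 was detected in 2.92%, also within that range.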

How the data were processed

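Single-cell RNA-seq of 1 AM library was analysed, and gene names were those of the table. Per the paper's methods, the authors counted UMIs on mm10 with Cell Ranger and filtered cells on gene number and mitochondrial share, removing cells with very many genes, so no doublet caller was run here. The authors deposited a natural log value for each gene and cell, ln(1 + UMIs per 10000 of the cell's UMIs), and a scaled score (the log value after regression, centred and capped at 10), made with Seurat. Ribosomal protein genes, stated as removed, are still listed.

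UMIs were recovered from the steps within each cell, and 100% of the values above 0 came out whole within 0.01. The 2055 cells held 7222978 UMIs. Shares have exact Clopper-Pearson intervals, a share of 0 the limit of 3 cells, levels exact Poisson intervals, and ratios and folds exact conditional binomial intervals, each at 95%. No test was run, since there is 1 library. Members and lists were chosen with earlier results of these data known. The genes named are the 10 members, the 3 genes with the highest r to each member detected in at least 10% of cells, the 10 highest of the pathway list, and markers of other cell types. Further pathway genes (Pla2g4a, Dpep2, Mgst2, Aloxe3, the receptors and Abcc1) and the Cd9 groups were chosen after their values were seen. Alternatives changed the depth, the mitochondrial limit, the detection limit, the bins, the scale of correlation and the class rules. The steps were tested on simulated data. Python 3.11.15, numpy 2.4.6, scipy 1.17.1, pandas 2.3.3 and matplotlib 3.10.9 were used.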

Additional observations from a re-analysis of the deposited data

How the results depend on the processing

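The order of the 10 levels was the same in all 10 places with the mean over cells and in cells with at most 5% mitochondrial UMIs, and 0 of 20 values left their interval. Of 10 detection shares, 9 left their interval at 2000 UMIs per cell and 10 when 2 UMIs counted as detected, whereas 0 did so in cells with at most 5% mitochondrial UMIs. The joint detection ratios of the 6 leukotriene pairs stayed within their intervals under all 4 alternatives. At 2000 UMIs per cell the ratio moved to 2.26 for Ptgs1 with Tbxas1 and to 54.9 for Ptgs1 with Ptges, each resting on 1 cell. The 15 values of r stayed within their intervals under all 4 alternatives, and Alox5ap with Ltc4s ranged from 0.0909 to 0.120. Of 21 folds between classes, 2 left their interval at 2000 UMIs per cell (Alox5 in dividing cells, Tbxas1 in chemokine cells), 0 in cells with at most 5% mitochondrial UMIs, and 4 when 1 more marker was asked for. With genes in at least 1% of cells, the number higher went from 0 to 1 in dividing cells and from 0 to 1 in chemokine cells, Ptgs2 in each. The fold of Ptgs2 in chemokine cells was 1.81 in cells with at most 5% mitochondrial UMIs. No paired analysis was possible because there is 1 library, and no replicate could be left out. Depth limits the 4 genes under 2% of cells, for which absence from a cell was not detectable.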

Other observations

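In a single cell chosen after its values were seen, 940 of 3952 UMIs were of Jchain, the joining chain gene of antibody-secreting cells, and Mrc1 had 0 UMIs. It held 2 UMIs of Ltc4s, which is 5.06 per 10000 (0.613 to 18.3), and 1 UMI of Alox5ap, which is 2.53 per 10000 (0.0641 to 14.1), beside library levels of 7.19 and 7.52. These intervals include the library levels. The AM marker Chil3 had 15 UMIs, which is 38.0 per 10000 (21.2 to 62.6) beside a library level of 135.9, and the interval of Mrc1 reached 9.33 beside a library level of 9.66. Since Jchain took 940 of the 3952 UMIs, the levels of all other genes in this cell are lowered, which was not corrected for. The gap of Mrc1 is thus too small to read.

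In the 384 cells with more than 5% mitochondrial UMIs, Pla2g15 was at 1.67 UMIs per 10000 (1.44 to 1.92) and in the other 1671 cells at 1.36 (1.27 to 1.45). Alox5 was at 0.906 (0.741 to 1.10) and 0.740 (0.673 to 0.812), and Ltc4s at 7.42 (6.93 to 7.93) and 7.14 (6.93 to 7.36). Alox5ap went the other way, at 7.18 (6.70 to 7.69) and 7.58 (7.36 to 7.80), with detection in 79.4% and 86.7% of cells. The median total was 2684.5 UMIs in the first group and 3403 in the second.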
